A study of Mus musculus with 4 samples.

Results

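Aquaporins are membrane channels for water and small solutes, and 10 genes of the family were followed here in the ureters of mouse embryos with and without a conditional deletion of ΔNp63. They were taken as every non-control probe whose gene name in the scanner files was Aqp1, Aqp2, Aqp3, Aqp4, Aqp5, Aqp6, Aqp7, Aqp8, Aqp9 or Aqp11. This gave 15 probes for 10 genes, of 39429 probes and 24132 gene symbols on each array. Ureters were dissected by hand from NMRI embryos at E18.5, and total RNA was hybridised to 4 arrays of 2 colours. Each array carried 1 RNA of the mutant, called cKO here (Pax2-cre/+; Trp63(dN-flox/dN-flox)), and 1 RNA of a control (Trp63(dN-flox/?), with no cre listed and the second allele not given). Both genotypes therefore share at least 1 floxed allele, and the cre is driven by the Pax2 promoter, which is active in the nephric duct lineage that forms the ureter epithelium. Arrays 1, 3 and 4 held female pairs and array 2 a male pair. Arrays 1 and 3 carried the cKO in the red channel, the other 2 in the green one. All 4 lay on 1 slide and in 1 scan, the same for both genotypes, so an effect of slide or scan could not be estimated. The labels do not say whether an RNA came from 1 embryo or from several, so the p-values measure only the spread between these arrays.

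Classical aquaporins (Aqp1, Aqp2, Aqp4, Aqp5 and Aqp8) pass mainly water, Aqp6 is an intracellular channel that also conducts anions, and the aquaglyceroporins Aqp3, Aqp7 and Aqp9 pass glycerol as well. Aqp11 belongs to a divergent branch and lies in intracellular membranes. In the kidney collecting duct, vasopressin acts through the V2 receptor to move Aqp2 into the apical membrane, while Aqp3 and Aqp4 form the basolateral exit for water; in the urothelium, Aqp3 is known from basal and intermediate cells. ΔNp63 is the form of p63 that marks basal cells of stratified epithelia.

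The probe sequences show what each measurement read, and those of 5 members are shown here, 5′ to 3′ in the sense of the transcript: Aqp3 as the gene that fell, Aqp8 and Aqp11 as genes with 2 probes whose readings are set side by side, Aqp1 as a probe near a possible 3′ end and Aqp2 as one across a splice junction. Positions are those of the scanner files in build mm9. For Aqp2, Aqp8 at position 290 and Aqp11 at position 935 the whole 60 bases are shown; for the others only the last 30 of 60. Capitals mark AATAAA, the letters of the common polyadenylation signal.
Aqp3, transcript position 1498 (chr4:41039962-41040021, minus strand): gtgtaatatgtttctgttataagatagaca
Aqp1, transcript position 2690 (chr6:55298480-55298539, plus strand): tcttatggtaagaaAATAAAggacaatgac
Aqp2, transcript position 586 (chr15:99412578-99413554, plus strand): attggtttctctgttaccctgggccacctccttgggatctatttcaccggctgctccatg
Aqp8, transcript position 290 (chr7:130606210-130606269, plus strand): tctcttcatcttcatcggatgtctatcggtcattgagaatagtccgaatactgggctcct
Aqp8, transcript position 1421 (chr7:130611453-130611512, plus strand): ctgactttgtAATAAAtggcttagcatttc
Aqp11, transcript position 935 (chr7:104877482-104877541, minus strand): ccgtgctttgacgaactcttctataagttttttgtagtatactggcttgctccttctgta
Aqp11, transcript position 1262 (chr7:104874889-104874948, minus strand): aggctcattcattaaacatctacctatccc
The Aqp2 probe reads 60 bases of RNA that span 977 bases of the genome, so it crosses a splice junction. The probe of Aqp1 and the Aqp8 probe at position 1421 hold AATAAA, as does 1 probe of Aqp6, which places these readings near a possible 3′ end. Among the 100 pairs of probes from different aquaporin genes, the longest run of shared bases was 11. No annotation of build mm9 was used here, so exon and UTR placement is not given.

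Across the 18033 genes tested, Trp63, the targeted gene, was lower on every array, with log2 ratios of cKO over control of -2.86, -1.68, -2.03 and -2.13 on arrays 1 to 4 (mean -2.18 ± 0.50, SD, n = 4; limma adjusted p = 0.00207). These are the values of its brightest probe. The mean over all its probes that were well above background was -1.38 (limma adjusted p = 0.00186), so its probes did not all fall alike. No source used here says whether any of them lies in the floxed part. At an adjusted p under 0.05, 530 genes were higher (2.94%) and 1017 lower (5.64%), together 8.58%. These shares are to be set beside each list count below. Array 1 had more spots well above background (90.0% in green and 82.6% in red) than arrays 2 to 4 (75.0% to 76.5% and 72.4% to 72.9%).

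One aquaporin gene, Aqp3, fell in the cKO, by 1.74-fold, and none rose past the threshold. A test was possible for 7 of the 10 genes, because a probe was well above background on all 4 arrays in at least 1 genotype: Aqp1, Aqp2, Aqp3, Aqp4, Aqp7, Aqp8 and Aqp11. Of these 7, 1 was lower, 0 were higher and 6 did not pass limma's test, beside 5.64% lower and 2.94% higher among all genes tested. An unadjusted p under 0.05 was found for 4 of the 7, against 23.7% of all genes tested. The median log2 ratio of the 7 was -0.05, against 0.00 for all genes, and 5 of the 7 had the same sign on all 4 arrays, against 30.6% of all genes. The 4 cKO levels lay wholly below the 4 control levels for 1 aquaporin, Aqp3, as they did for 6.2% of all genes, and wholly above them for 0 aquaporins and 3.68% of all genes.

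**Figure D1:**
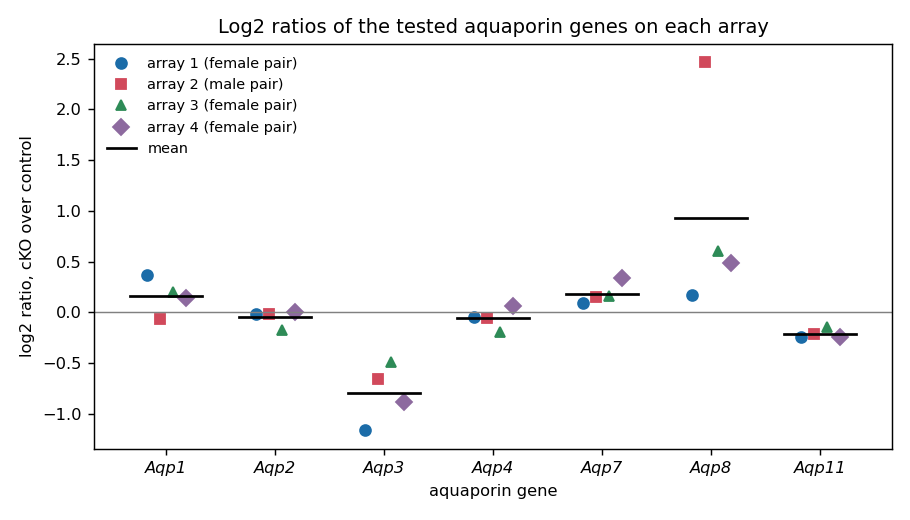
Log2 ratio of cKO over control (vertical axis) for each of the 7 tested aquaporin genes (horizontal axis); each symbol is 1 array and the bar is the mean of the 4 arrays. Aqp3 lies below 0 on every array, from -1.16 to -0.49, and for Aqp8 array 2 stands at 2.46 while the other arrays lie between 0.17 and 0.61.

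Aqp3, the aquaglyceroporin of basolateral membranes, had log2 levels of 13.26, 13.36, 13.31 and 13.11 in the cKO RNAs of arrays 1 to 4 and of 14.43, 14.01, 13.81 and 14.00 in the control RNAs. The highest cKO level lay below the lowest control level, and all 16 spots of the probe were well above background in both channels. The ratios were -1.16, -0.66, -0.49 and -0.89, and the largest difference was on array 1, where the control level was the highest of the 8 RNAs. The mean log2 ratio was -0.80 ± 0.29 (SD, n = 4; limma adjusted p = 0.0198). The spots of the probe differed little within an array, with an SD of their log ratios of 0.01 to 0.02. In the authors' deposited table the values were -1.13, -0.68, -0.45 and -0.90. The call ended without array 4 (-0.74, adjusted p = 0.0803) and on the deposited values (-0.79, adjusted p = 0.0725), and it held in 11 of 13 alternative settings, with ratios between -0.97 and -0.63.

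Markers of the epithelium are given beside Aqp3. Of 12 tested basal urothelial markers, 11 were lower and 0 higher, with a median log2 ratio of -2.22 (per array -2.30, -1.94, -2.25 and -2.21). Their summed levels were 32526 to 41954 units in the cKO and 163246 to 198646 in the control, so the groups did not overlap. Trp63, the targeted gene, is itself in this list and is counted in the 11, the median and the sums. Krt5, the basal keratin, fell 7.26-fold (-2.86 ± 0.10, SD, n = 4; limma adjusted p = 0.000155) and Shh, a ligand of the ureteric epithelium, fell 4.62-fold (-2.21 ± 0.07, adjusted p = 0.000155). The general epithelial list had 4 of 12 tested genes lower and 0 higher, with a median of -0.45 (per array -0.75, -0.08, -0.36 and -0.52), and its sum was 226088 to 368341 in the cKO and 362868 to 387033 in the control. The 4 were Grhl2, Cldn4, Cdh1 and Epcam, with mean log2 ratios from -1.23 (Grhl2) to -0.59 (Cdh1). Grhl2 passed whichever array was left out, whereas the call of Cldn4 ended without array 1 (adjusted p = 0.0528), that of Cdh1 without array 1 (0.0835) or 3 (0.0603) and that of Epcam without array 2 (0.0504) or 4 (0.0877). The superficial urothelial list had 1 gene higher (Gsdmc, 6.04-fold), 1 lower (Krt7, 2.33-fold) and 9 of 11 not past the threshold. Its median was -0.45 (per array -0.75, -0.04, -0.17 and -0.46), and its sum was 485630 to 749801 in the cKO and 722044 to 823557 in the control. The lower count of this list was 2 without array 2 and 4 without array 3. The mean ratio of Aqp3, -0.80, lay between the basal median of -2.22 and the general epithelial median of -0.45, differences that were not tested. It also lay within the range of the 4 general epithelial genes named, but these were selected because they passed as lower. In bulk RNA, fewer cells of a type and less RNA per cell cannot be told apart, and the part of the epithelial markers in the Aqp3 ratio was not tested.

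The 4 genes whose ratios over the arrays lay nearest to those of Aqp3 were Krt81, a hair-type keratin, Id1, an inhibitor of basic helix-loop-helix factors, Extl1, a glycosyltransferase of the exostosin family, and Adh1, an alcohol dehydrogenase. Their distances from Aqp3 were 0.13, 0.13, 0.17 and 0.18 (Euclidean, on the log2 scale over 4 arrays). Krt81, the nearest, had ratios of -1.24, -0.73, -0.54 and -0.94, which follow the same order over the arrays as those of Aqp3. These genes were picked for their likeness, so their ratios are a description.

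Among the aquaporin promoter windows at hand, that of Aqp3 alone held the TATA box letters TATAAA. The 150 bases before its RefSeq start site are given as the promoter of the aquaporin that fell, beside those of Aqp8, with TATAAA and GGGCGG (or its other strand, CCGCCC) in capitals (GRCm38.p6).
Aqp3 (chr4:41098184-41098333, minus strand): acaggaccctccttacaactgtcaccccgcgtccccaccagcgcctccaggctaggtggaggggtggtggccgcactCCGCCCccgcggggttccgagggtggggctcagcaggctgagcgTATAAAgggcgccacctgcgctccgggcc
Aqp8 (chr7:123462144-123462293, plus strand): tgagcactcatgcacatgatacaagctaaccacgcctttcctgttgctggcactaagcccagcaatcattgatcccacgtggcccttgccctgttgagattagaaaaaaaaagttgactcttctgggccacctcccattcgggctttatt
In Aqp3, TATAAA begins 29 bases before the start. Windows of 300 bases (250 before to 50 after the start) were found in RefSeq for 9 of the genes, all but Aqp4, 11 windows in all, and were searched on both strands. TATAAA was in 1 of the 11 (Aqp3), against 13.6% of 32851 windows of all genes, and GGGCGG in 3 (Aqp1, Aqp3 and Aqp5), against 35.7%. The p53 family half-site was in 1 (Aqp2), against 8.36%. The Aqp3 window had 64.0% G and C and 21 CpG dinucleotides, against medians of 52.7% and 7. A match is a description of letters and was set against no binding data.

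Aqp8, a water channel known from liver, pancreas and gut, had the widest spread between arrays of the 7 tested genes. Its probe at position 1421 had log2 levels of 7.07, 10.24, 8.12 and 7.72 in the cKO RNAs of arrays 1 to 4 and of 6.90, 7.78, 7.52 and 7.24 in the control RNAs. The cKO RNA of the male pair stood above the other 7 RNAs, and the groups overlapped. The ratios were 0.17, 2.46, 0.61 and 0.49, above 0 on 4 of 4 arrays (mean 0.93 ± 1.04, SD, n = 4; limma adjusted p = 0.159). The other Aqp8 probe, at position 290, lay 5243 bases upstream in the genome and had ratios of 0.09, 1.59, 0.25 and -0.02. It was well above background on array 2 alone, in 4 of 4 cKO spots and 3 of 4 control spots, and in 0 of 4 spots of either channel on arrays 1, 3 and 4. Both probes therefore had their highest level in the same RNA, and the deposited values on array 2 were 2.98 and 2.21.

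Without array 2 the mean ratio of Aqp8 was 0.44 (adjusted p = 0.109), and without array 4 it was 1.43 with an adjusted p of 0.00715. In the second case array 2 is the only array of its dye orientation and adds nothing to the residual spread. The term for the male pair, which beside the dye term equals array 2 minus array 4, was 1.98 for Aqp8. It rests on 1 male pair, so no test of it is given, and sex cannot be told apart from anything else that sets array 2 aside. For the other 6 tested aquaporins the term lay between -0.21 and 0.23.

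**Figure D2:**
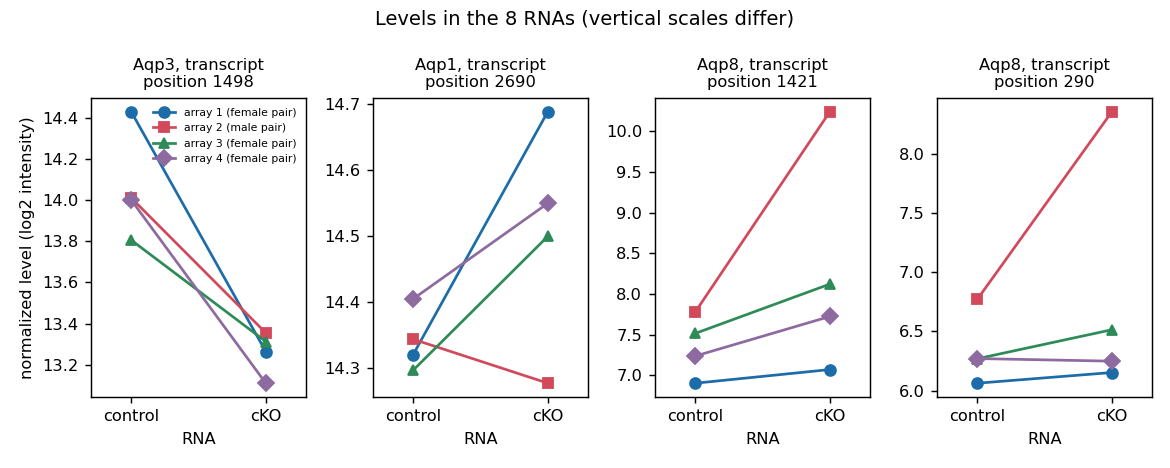
Normalized log2 intensity (vertical axes, with scales that differ between panels) in the control and cKO RNA of each array for the probes of Aqp3 and Aqp1 and both probes of Aqp8; a line joins the 2 RNAs of 1 array. All 4 lines of Aqp3 slope down, 3 of 4 lines of Aqp1 slope up, and the cKO RNA of array 2 stands alone for both Aqp8 probes, at 10.24 and 8.36.

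Markers of hepatocytes varied between the arrays as well. Of 13 tested hepatocyte markers, 5 were higher and 0 lower, beside 2.94% higher and 5.64% lower among all genes tested. The markers had a median log2 ratio of 1.57 (per array 2.21, 2.56, 1.31 and 0.41). Their summed level was 58307, 297603, 80579 and 39868 units in the cKO RNAs and 37940, 73019, 52958 and 55395 in the control RNAs, so the cKO RNA of array 2 had the highest sum and the groups overlapped. Afp, the fetal serum protein alpha-fetoprotein, had ratios of 2.77, 2.71, 1.47 and 0.77 (adjusted p = 0.0383). Hnf4a, a transcription factor of hepatocytes and of proximal tubule, had ratios of -0.05, 0.81, -0.06 and -0.68, with its highest on array 2. The count of 5 depended on the arrays used: leaving out arrays 1, 2, 3 and 4 in turn gave 1, 4, 0 and 9, and the call of Afp ended when array 1, 2 or 3 was the one left out. By median ratio the list was high on arrays 1 and 2, and by summed level the cKO RNA of array 2 stood apart, as it did for Aqp8. The part of hepatocyte RNA in the Aqp8 ratio was not tested.

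The 3 genes nearest to Aqp8 over the arrays were C8b, a complement component, Cyp2c29, a cytochrome P450, and Crp, the acute-phase C-reactive protein. All 3 are genes known for expression in liver. They were picked for their likeness to Aqp8, so their ratios and calls beside it are a description. Their distances from Aqp8 were 0.22, 0.36 and 0.45. C8b had ratios of 0.16, 2.58, 0.42 and 0.50, and Cyp2c29 had 0.17, 2.59, 0.93 and 0.40. None of the 3 passed the test between genotypes (limma adjusted p of 0.139 to 0.177). Without array 4 all 3 passed, as Aqp8 did (adjusted p of 0.00346 to 0.0149), and Crp also passed without array 2 (0.0434).

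**Figure D3:**
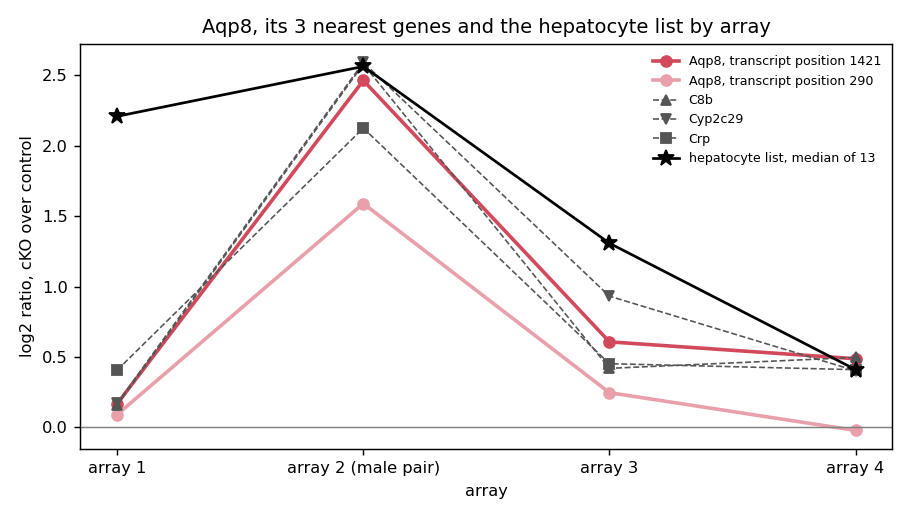
Log2 ratio of cKO over control (vertical axis) on each array (horizontal axis) for both Aqp8 probes, the 3 genes nearest to Aqp8 and the median of the 13 hepatocyte markers; lines join values of 1 gene or list. Aqp8 and its nearest genes peak on array 2 and lie under 0.5 on array 1, where the hepatocyte median is 2.21.

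Aqp11, the intracellular member, had 2 probes that passed the filter. The one that stood for the gene, at position 1262, had log2 levels of 10.38, 10.85, 10.82 and 10.71 in the cKO RNAs and of 10.62, 11.07, 10.97 and 10.96 in the control RNAs. The cKO was lower within every array, although levels differed more between arrays than between genotypes and the groups overlapped. The ratios were -0.24, -0.22, -0.14 and -0.24 (mean -0.21 ± 0.05, SD, n = 4; limma adjusted p = 0.0762). The probe at position 935, 2593 bases away in the genome, had ratios of -0.21, -0.21, 0.06 and -0.32 (mean -0.17 ± 0.17). The 2 probes differed in sign on array 3. Without the dye term the adjusted p of Aqp11 was 0.04999, and over the other alternatives it stayed above the threshold. The nearest genes to Aqp11 were Snx11, Rfc3, Snai3 and Zfp7, at distances of 0.05 to 0.07, and none of the 4 passed the test. They too were picked for their likeness, so this is a description.

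Aqp1, the constitutive water channel of endothelium, red cells and proximal tubule, had log2 levels of 14.69, 14.28, 14.50 and 14.55 in the cKO RNAs and of 14.32, 14.34, 14.30 and 14.40 in the control RNAs. The cKO was the higher one in the 3 female pairs and not in the male pair, and the groups overlapped. The ratios were 0.37, -0.07, 0.20 and 0.14 (mean 0.16 ± 0.18, SD, n = 4; limma adjusted p = 0.212). The 18 endothelial markers had a median log2 ratio of 0.18 (per array 0.28, 0.09, 0.21 and 0.18), with 0 past the threshold. Their summed level was 164451 to 194398 units in the cKO and 142288 to 163865 in the control, without overlap. The 15 tested red cell markers had a median of 0.27 (per array 0.49, 0.57, -0.11 and 0.19). Of these markers 1, the globin gene Hbb-b2, was higher (1.32-fold, limma adjusted p = 0.043), a call that ended without array 1, 2 or 3. The ureter smooth muscle list, of 12 tested genes, had a median of 0.18 (per array 0.28, 0.06, 0.06 and 0.20). The mesenchyme list, also of 12, had a median of 0.13 (per array 0.21, -0.07, 0.08 and 0.09). Both had 0 genes past the threshold. Smooth muscle sums, 847401 to 912216 in the cKO and 694277 to 835498 in the control, did not overlap, whereas red cell and mesenchyme sums did. Leaving out 1 array moved the counts of these 4 lists by at most 1 gene. The part of these cell types in the Aqp1 ratio was not tested.

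Aqp7, the glycerol channel best known from adipocytes, had log2 levels of 7.84, 8.33, 8.41 and 8.51 in the cKO RNAs and of 7.75, 8.18, 8.26 and 8.18 in the control RNAs. The cKO was the higher one within every array, and the groups overlapped because both RNAs of array 1 were low. The ratios were 0.09, 0.15, 0.16 and 0.33 (mean 0.18 ± 0.11, SD, n = 4; limma adjusted p = 0.141). Of the 14 adipocyte markers listed 7 could be tested, and those not tested, since not well above background, included Adipoq, Plin1, Cidec and Lep, which define mature adipocytes. Of the 7, Cidea was higher (1.36-fold) and Cebpa lower (1.62-fold), and the median was -0.11; the call of Cidea ended without array 2, 3 or 4, and 2 genes were lower without array 1 or 3.

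Aqp2, the vasopressin-regulated channel of the collecting duct, was well above background in all 16 spots of both channels. Its ratios were -0.01, -0.01, -0.17 and 0.00 (mean -0.05 ± 0.08, SD, n = 4; limma adjusted p = 0.667). Aqp4, the basolateral channel of collecting duct and astrocytes, had ratios of -0.05, -0.05, -0.20 and 0.07 at position 1561 (mean -0.06 ± 0.11, adjusted p = 0.629). Its probe at position 4974 had a mean of -0.08 ± 0.11. Over all alternative settings, the mean ratio stayed between -0.09 and -0.01 for Aqp2 and between -0.11 and -0.02 for Aqp4, and neither passed in any of them.

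Aqp5, a channel of secretory glands and lung, was not well above background in any cKO spot of either probe, and in 2 of 15 and 0 of 16 kept control spots. Aqp6, of collecting duct intercalated cells, was above background in 0 cKO spots and in 1 of 14 and 2 of 16 control spots. Aqp9, the glycerol and urea channel of hepatocytes and leukocytes, was above background in 4 of 15 cKO and 5 of 15 control spots, and the 3 kept cKO spots of array 2 were all among them. No fold is given for these 3 genes, since both genotypes were below the filter. The deposited value of every probe of Aqp5, Aqp6 and Aqp9 was 0 on all 4 arrays. By probe position, Aqp2, Aqp5 and Aqp6 are neighbours on chromosome 15, with 21.1 kb between the Aqp2 probe and the nearer Aqp6 probe, and of these neighbours Aqp2 alone could be tested. Aqp7 and Aqp3 lie 59.5 kb apart on chromosome 4, and their mean ratios had opposite signs (0.18 and -0.80). Of the other family members listed, Mip and Aqp12 had probes and could not be tested.

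Of 26 tested genes of the vasopressin response and Aqp2 trafficking, 1 was higher, 0 lower and 25 did not pass, with a median log2 ratio of 0.01, beside 2.94% higher and 5.64% lower among all genes tested. The gene that rose was Avpr2, the V2 receptor, 1.54-fold (ratios 0.34, 0.67, 0.65 and 0.82; mean 0.62 ± 0.20, SD, n = 4; limma adjusted p = 0.00944). The adenylyl cyclase Adcy6 (0.13 ± 0.12) and Myo5b, a motor of recycling vesicles (-0.38 ± 0.33), did not pass.

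In the list made for the principal cell, which carries Aqp2 in the kidney, 17 genes were tested. Of these, 6 were higher, 0 lower and 11 not past the threshold, with a median of 0.09. The shares among all genes were 2.94% higher and 5.64% lower. Fxyd4, a regulator of the sodium pump, rose 3.09-fold (1.63 ± 0.33, SD, n = 4; limma adjusted p = 0.00267). The subunits of the epithelial sodium channel Scnn1b and Scnn1a rose 2.56-fold and 2.26-fold (adjusted p of 0.00255 and 0.006). Avpr2, Tfcp2l1 and Ret made up the 6, and the call of Ret ended without array 2 (adjusted p = 0.075) or array 4 (0.0731). Kcnj1 and Calb1 of this list were not well above background. The summed level of the list was 192671 to 285665 in the cKO and 250906 to 288514 in the control, so the sum itself was not higher. A sum weighs the brightest genes most, and this list shares Krt8 and Krt18 with the general epithelial list. The sum is therefore not a measure of principal cells alone. Whether the genes counted as higher are limited to that cell type was not tested. The intercalated cell list had 2 of 10 tested genes lower, the proton pump subunit Atp6v0a4 (1.84-fold) and the ammonia transporter Rhbg (2.16-fold), and 0 higher. Of 13 tested proximal tubule genes, 2 were higher, Cubn (4.83-fold) and Cyp2e1 (2.92-fold), and 0 lower; 6 were lower without array 2 and 4 higher without array 4. From the same list, Umod and Slc12a1, which mark the loop of Henle, were not well above background. The summed proximal tubule level was 20519 to 27814 in the cKO and 12420 to 15270 in the control. The median log2 ratio of that list was 0.03 (per array -0.20, 0.82, -0.10 and -0.41), and 11 of the 13 genes did not pass. The higher sum was therefore not a rise of the list as a whole. The part of kidney cells in the aquaporin ratios was not tested.

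Glycerol, which Aqp3, Aqp7 and Aqp9 carry, and urea were represented by 10 tested genes, of which 1 was higher, 1 lower and 8 not past. Among all genes tested, 2.94% were higher and 5.64% lower. Slc14a1, the urea transporter UT-B known from urothelium and red cells, fell on every array (ratios -2.24, -1.06, -1.37 and -1.86; mean -1.63 ± 0.52, SD, n = 4; limma adjusted p = 0.00921). Its largest falls, like that of Aqp3, were on arrays 1 and 4. Gpd1, the glycerol-3-phosphate dehydrogenase of the cytosol, rose 1.97-fold (0.98 ± 0.34, adjusted p = 0.00903). The glycerol kinase Gk (0.45 ± 0.29, adjusted p = 0.0645) and Slc14a2, the urea transporter of the collecting duct (0.09 ± 0.09), did not pass. Without array 1, 2 genes of this list were higher.

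Of 20 tested genes of cell volume and osmotic response, 2 were lower, 2 higher and 16 not past. Among all genes tested, 5.64% were lower and 2.94% higher. Trpv4, a cation channel that opens on cell swelling and is known from urothelium, fell 2.52-fold (-1.34 ± 0.14, SD, n = 4; limma adjusted p = 0.000905). Akr1b3, the aldose reductase that makes sorbitol, fell 1.83-fold (-0.87 ± 0.35, adjusted p = 0.0203), and was not past the threshold when array 1 (0.0517) or array 4 (0.0701) was left out. Stk39, a kinase of the salt transport cascade, and Lrrc8c, a subunit of volume-regulated anion channels, were higher by 1.23-fold and 1.22-fold, and both calls ended when any 1 array was left out (adjusted p of 0.0795 to 0.177).

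**Figure D4:**
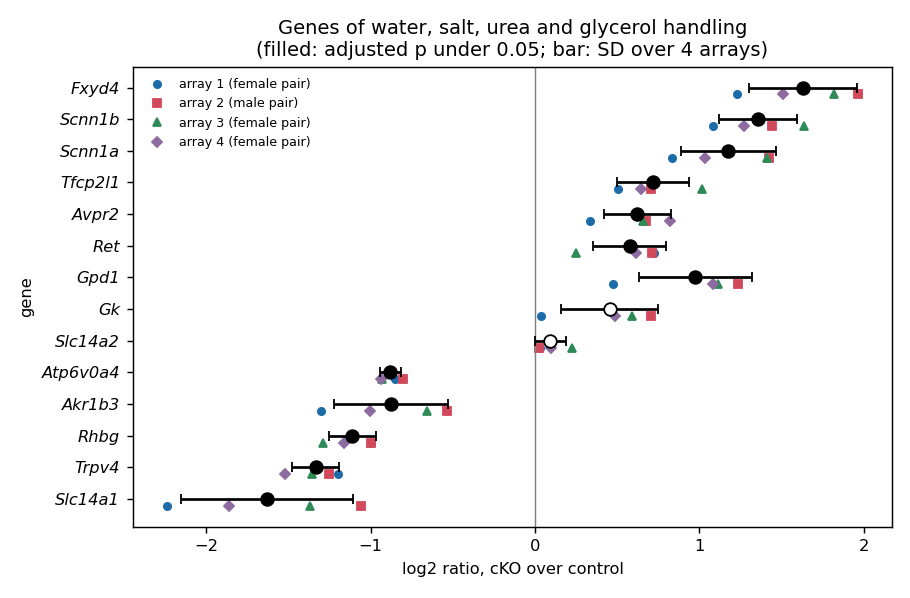
Log2 ratio of cKO over control (horizontal axis) for 14 genes of water, salt, urea and glycerol handling (vertical axis); black circles with bars are the mean and SD of 4 arrays, filled where the adjusted p is under 0.05, and coloured symbols are single arrays. Fxyd4, Scnn1b, Scnn1a, Tfcp2l1, Avpr2, Ret and Gpd1 lie above 0 and Slc14a1, Trpv4, Rhbg, Akr1b3 and Atp6v0a4 below it on every array. The genes shown were picked from their lists, mostly because they passed, and most genes of these lists did not pass. Stk39 and Lrrc8c are not shown.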

How the data were processed

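Per the file headers, the authors read spot intensities from the scans in Agilent Feature Extraction 10.7.3.1; the deposited files also give each spot's log10 ratio, red over green. The deposited value table holds log2 ratios; set against the scanner values of each array (slope 0.990 to 1.00) its direction was cKO over control, with a median of 0 and 7718 to 12487 exact zeros per array, of unstated making.

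Mean signals were corrected against local background (normexp, offset 50), normalized by loess within arrays and expressed as log2 ratios (cKO over control), without outlier spots; levels per RNA came from Aquantile. A probe had to be well above background in over 50% of its kept spots on 4 arrays in 1 genotype; the brightest such probe stood for its gene. Beyond this choice, levels of different probes were not compared. Probes were named through RefSeq (GRCm38.p6, 5927 of 39429 unnamed). limma 3.58.1 in R 4.3.3 tested ratios with a dye term (2 residual degrees of freedom), with Benjamini-Hochberg adjustment over 18033 genes. SDs include the dye difference; p-values do not. The fit was also run on simulated ratios with known changes and independent noise, as a check of the code that does not bear on the calls here. Each array is a cKO and control pair, so pairing is built in.

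The members and lists were chosen with earlier results of these data known. Named genes are the members, Trp63, up to 4 genes per list with the lowest p (the 2 brightest where none passed), and 4 nearest genes for each of 3 members, 1 of which is not reported here. Tfcp2l1, Ret, Gk, Slc14a2, Adcy6, Myo5b, Hnf4a and genes named as not tested fall outside this rule and were chosen after their values were seen.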

Additional observations from a re-analysis of the deposited data

Results flagged for a closer look

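Among 45 sets of 4 values (ratios and levels of each aquaporin probe), 6 had 1 array far from the other 3, where chance alone gives about 5% of independent sets. The sets here are not independent, since a ratio is the difference between the 2 levels of its probe. No excess over chance is therefore read from the 6. Both values of the Aqp8 probe at position 290 on array 2 were among them, the ratio of 1.59 and the cKO level of 8.36. The Aqp2 ratio on array 3 was -0.17, apart from the other 3 arrays at -0.01 to 0.00. On array 1, the cKO level of the Aqp4 probe at position 4974 was 7.69, above the other cKO RNAs. The control level of Aqp7 on array 1 was 7.75, below the other controls. That of Aqp9 on array 1 was 6.27, with 3 of 4 control spots well above background, although the Aqp9 probe did not pass the filter. Array 1 also had the highest share of spots well above background, and its part in these values was not tested.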

How the results depend on the processing

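Under the alternatives, 89 values of the member ratios kept their direction and side of the threshold, 2 lost it and 2 gained it. Aqp3 lost its call on the deposited value table (-0.79) and without array 4; leaving out 1 array gave -0.97 to -0.63. The count of aquaporins lower was 0 on the deposited table, 2 with no dye term (Aqp11 added) and 0 to 1 without 1 array; that of aquaporins higher was 0 to 1 without 1 array (Aqp8, without array 4). Genes higher and lower over the array were 253 and 580 on the deposited table, and 276 to 359 and 560 to 764 without 1 array. In a fit of separate channels with the replicate block (the array; intra-spot correlation 0.740) they were 1240 and 1718, and with no replicate block 120 and 437; Aqp3 passed in both (adjusted p = 0.00158 and 0.0264) and no other member did. On the deposited table the calls of Afp, Akr1b3, Cdh1, Cidea, Cldn4, Epcam, Hbb-b2, Lrrc8c, Stk39 and Tfcp2l1, and of the 4 genes nearest to Aqp3, ended too; with no replicate block those of Afp, Avpr2, Cdh1, Cebpa, Cidea, Epcam, Extl1, Hbb-b2, Id1, Lrrc8c, Ret, Rhbg, Scnn1a, Stk39 and Tfcp2l1 ended, on Agilent's processed signals those of Afp, Hbb-b2, Lrrc8c and Stk39, and with no filter on dim probes those of Afp, Hbb-b2 and Id1. The cause of these changes was not tested, other than that fewer arrays enter when 1 is left out. No scaling moved the median of all genes by over 0.02.

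Precision is limited by 4 arrays, 1 of them a male pair, and by signal over background for Aqp5, Aqp6, Aqp9 and 1 Aqp8 probe.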
